A study of Drosophila melanogaster with 24 samples.

Results

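The comparison described here sets 3 libraries of flies that had been off rotenone for 7 days (PWOFC) against 3 libraries of flies at the end of 7 days of rotenone feeding (PD). These 6 libraries were chosen by their labels alone, from a table of 18 libraries in 6 groups. Rotenone is an inhibitor of complex I of the mitochondrial respiratory chain and is used to model Parkinson's disease in flies. The libraries hold poly(A) RNA of whole adult w1118 flies kept with equal numbers of males and females in a bottle. PD flies received rotenone in their food for 7 days and were sampled at day 7, when they were 14 days past eclosion. PWOFC flies received rotenone for the same 7 days and then plain medium without a fecal transplant until day 14, 21 days after eclosion. A further pair of groups, of 3 libraries each, had never been given rotenone. CTRL flies received the solvent DMSO in place of rotenone and were taken on day 7 like PD flies, and CWOFP flies were taken on day 14 after 7 days without a fecal transplant. The rotenone was dissolved in DMSO, and its dose is 250 µM in the study's survival assay, while the same dose stands in the labels of fed and unfed groups alike. By the study's account its experiments used males and females in equal numbers, but how many flies went into each library of these groups is not given in the sources used here. Nothing says whether the 3 libraries of a group came from separate bottles, so p-values measure only the spread between these libraries. Because PWOFC flies were 7 days older than PD flies and were taken on another day, withdrawal, age and day cannot be told apart within this comparison. The change from CTRL to CWOFP covers the same days in flies without rotenone and shares no library with it.

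Rotenone blocks the passage of electrons from complex I to ubiquinone, which lowers ATP synthesis and raises the formation of reactive oxygen species. Insects respond to toxic diets through cytochrome P450 enzymes, glutathione transferases and UDP-glycosyltransferases, mainly in gut, fat body and Malpighian tubules. Whole adult females invest much of their RNA in the ovary, in yolk proteins from fat body and follicle cells, and in eggshell proteins, and egg production depends on nutrition. In RNA from whole flies, fewer cells of a type and less RNA per cell cannot be told apart.

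The PD and PWOFC libraries held 20719349 to 25682655 counts. Levels are given as CPM (counts scaled to a common library size with TMM factors over the 12 libraries of the 4 groups) in the order of replicates 1, 2 and 3. Over 12436 tested genes, libraries of the same group correlated at r = 0.975 to 0.983 and a PD library with a PWOFC library at 0.878 to 0.947. Library PWOFC3 stood below PWOFC1 and PWOFC2 in eggshell genes, with a summed level of 7343 CPM against 22020 and 22990, and in Jonah proteases, with 7504 CPM against 12360 and 12460. CTRL2 differed from CTRL1 and CTRL3 more than these did from each other (chi-square per degree of freedom 158.5 and 124.1 against 22.39). It was lower in ovary germline genes, with a summed level of 3333 CPM against 5674 and 6106, and in eggshell genes, with 10840 CPM against 16820 and 19360. It was higher in Turandot stress genes and in cytosolic ribosomal protein genes, the latter with 129700 CPM against 80670 and 93000. CWOFP3 held more muscle RNA, with a summed sarcomere level of 12720 CPM against 6307 and 4613. The summed markers of each of 13 cell types were above 0 in every library, among them those of gut, fat body, muscle, neurons, eye, ovary and testis. With this many counts a sum above 0 is easily reached, so it says little about the share of each tissue.

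After 7 days off rotenone, a large part of the transcriptome differed from the end of feeding. Of the 12436 genes tested, 4100 (33.0%) were differentially expressed transcripts (DETs, counted here per gene, with adjusted p below 0.05 and more than a 1 log2 unit change either way in edgeR's quasi-likelihood test). Among these, 1199 (9.64%) rose and 2901 (23.3%) fell. DETs among genes of yolk, eggshell, female germline and DNA replication all rose, and those among genes of starch and sugar digestion, testis, eye and odorant binding all fell. In 8869 genes (71.3%) the 3 PWOFC libraries lay wholly to one side of the 3 PD libraries, so that separation of the groups in a single gene is the common case. Over all genes the median log2 fold change was -0.09 in this scaling, -0.39 with upper quartile scaling and 0.14 with scaling on ribosomal protein genes, and changes of lists are given beside this shift. With upper quartile scaling 575 genes rose and 3825 fell, and with ribosomal protein scaling 2012 rose and 2019 fell.

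The other comparisons place this one. At the end of feeding, 285 of 12643 genes (2.25%) differed between PD and CTRL. After withdrawal, 177 of 12237 genes (1.45%) differed between PWOFC and CTRL, and 4 of 12297 genes (0.0325%) differed between PWOFC and the age-matched CWOFP, with 3097 at an unadjusted p under 0.05 and 501 DETs in DESeq2. In flies without rotenone, 231 of 12437 genes (1.86%) differed between CWOFP and CTRL, 227 of them lower. The change from PD to PWOFC differed from the change from CTRL to CWOFP in 2871 of 12817 genes (22.4%), as tested by an interaction over all 12 libraries. Single libraries weighed on these reference counts. Without CTRL2, PD2 and PD1 in turn the PD to CTRL count was 1648, 39 and 76, without CTRL1 and CTRL3 it was 119 and 78. The PWOFC to CTRL count was 1 without PWOFC1, 493 without PWOFC2, and 34, 63 and 101 without CTRL1, CTRL2 and CTRL3. The CWOFP to CTRL count was 54, 64, 99 and 142 without CTRL1, CTRL2, CTRL3 and CWOFP3. The interaction count was 1170, 1554, 1575 and 1830 without PD1, CTRL3, PWOFC1 and CTRL1, 493 with ribosomal protein scaling and 297 with all 18 libraries in the fit. The PWOFC to PD count kept within 3435 and 4535 without any one library, but was 2388 when all 18 libraries shared one estimate of the spread. That fit ended the calls of 18 of the named genes, with adjusted p between 0.0594 and 0.352. These were dj, roX1, Hsp67Bc, CecA1, TotM, Act79B, dyw, Vajk2, MtnE, ND-B8, ND-24L, ND-49L, COX6AL, COX6CL, COX7AL, ATPsynepsilonL, Prx1 and TrxT. Of the 1199 genes that rose from PD to PWOFC, 975 (81.3%) also passed this interaction upwards, and of 2900 tested genes that fell, 1227 (42.3%) passed it downwards. The change that chose these genes is a term of the interaction, so passing in the same direction is partly built in. Of all 12817 genes, 1355 passed it upwards and 1516 downwards. Over the 12271 genes tested in both, the change from PD to PWOFC and that from CTRL to CWOFP were weakly related (Pearson r = 0.167, Spearman rho = 0.212, described over genes, which are not independent replicates).

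**Figure D1:**
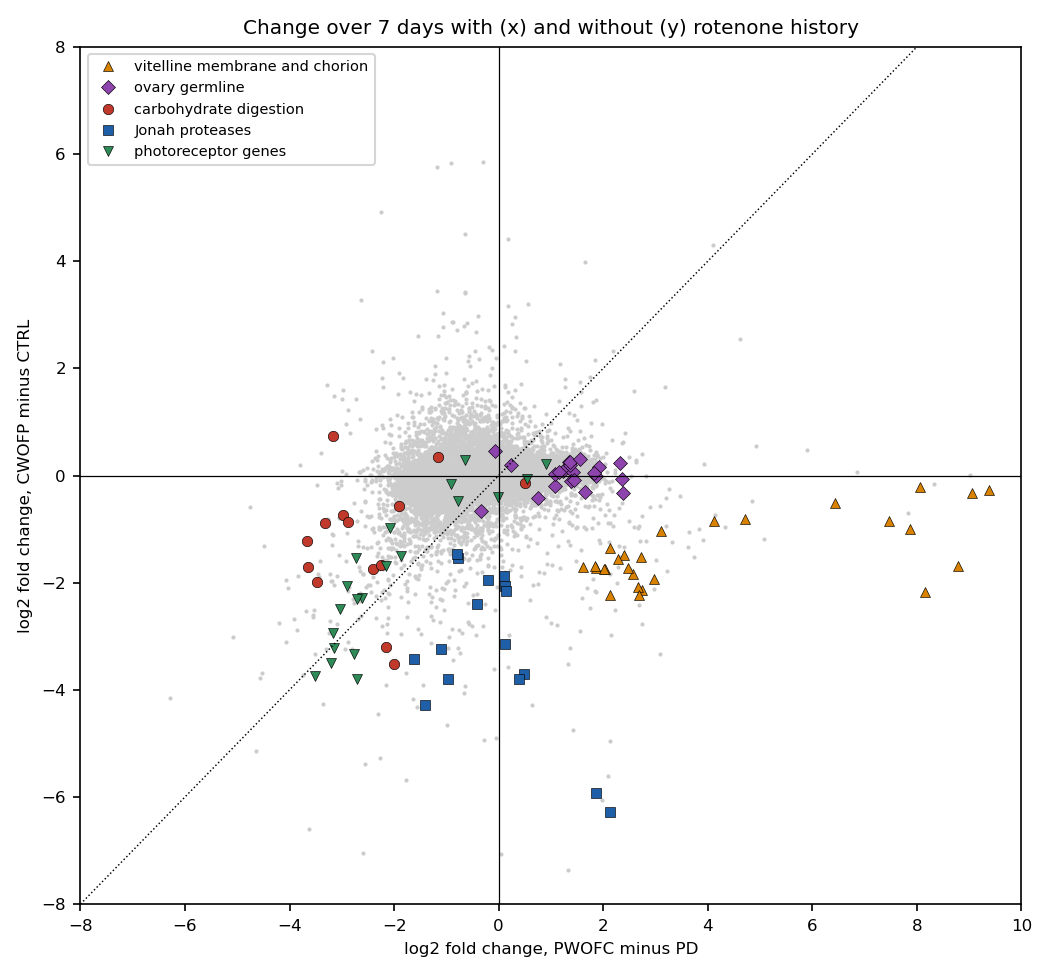
Log2 fold change from PD to PWOFC (x axis) against that from CTRL to CWOFP (y axis) for 12271 genes, one grey point per gene, with the members of 5 gene lists in color and the dotted line marking equal change. Most eggshell genes lie to the right and below 0 on the y axis, germline genes to the right and near 0, photoreceptor genes lie near the dotted line at the lower left, and most Jonah proteases below 0 on the y axis and near 0 on the x axis.

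Among the genes with the largest rises were eggshell genes and genes of early embryos. CG13084, an eggshell gene in the list used here, was at 0.0777, 0.281 and 0.715 CPM in PD and at 340.1, 194 and 45.3 CPM in PWOFC (log2 fold change 9.06 ± 1.29 SE, adjusted p = 0.00391). The chorion gene Cp16 rose from 1.01, 0.842 and 1.05 CPM to 880.1, 205 and 229 CPM (log2 fold change 8.79 ± 0.958 SE, adjusted p = 0.00142). All 3 PD libraries held almost none of these transcripts and all 3 PWOFC libraries held many. The eggshell genes CG4066 (9.37), Cp18 (8.16) and Cp7Fa (8.05) rose by similar amounts, as did CG12716 (9.01) and the mucin-related Mur11Da (8.33), which are in no list used here. The fitted folds of the genes near 0 counts in PD depend on the prior count, so their counts are the firmer description. CG4066 had 1, 0 and 2 counts in PD against 952, 726 and 150 in PWOFC, and CG12716 had 0, 3 and 0 against 679, 606 and 140.

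The second set comprises genes of the Bearded family, which restrain Notch signaling in the embryo, and link. BobA had 0, 0 and 0 counts in the PD libraries and 111, 40 and 111 in the PWOFC libraries. Against a floor of 3 counts per library, its level was at least 35.1-fold higher in PWOFC. On the same floor Ocho was at least 25.2-fold and Brd at least 19.4-fold higher. E(spl)m4-BFM had 0, 1 and 0 counts in PD and 89, 68 and 154 in PWOFC. For link the counts were 1, 3 and 0 against 411, 203 and 293. These are low levels, between 0.874 and 20.8 CPM in PWOFC. A list of early zygotic genes, written after values had been seen, had 20 members that passed the filter on low counts here against 14 in PD and CTRL. Members can thus have passed through their level in PWOFC alone, so no count of the list is given and nothing is read from its median in the plot of list medians. In CTRL and CWOFP all 5 genes were highest in library 3 of each group, where link was at 4.64 and 6.64 CPM against 0.219 CPM or less in the other 4 libraries. The interaction for link missed the threshold (interaction 7.29, adjusted p = 0.0547), and that of BobA, Brd, Ocho and E(spl)m4-BFM passed it but was lost without CTRL3. For BobA and Brd it was also lost without PD1, PD2 or PWOFC1, and for E(spl)m4-BFM without PD1 or PD2.

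Yolk protein genes, whose products fat body and follicle cells secrete for uptake by the oocyte, rose, and with fit, a female-biased gene of the fat body kept in the same list, 4 of 4 members rose (median 2.20). Yp3, on chromosome X at 13759546 to 13761547 of BDGP6 (dm6), was at 1641, 2252 and 1799 CPM in PD and at 9376, 10870 and 8088 CPM in PWOFC (log2 fold change 2.30 ± 0.165 SE, adjusted p = 1.58e-05). Every PWOFC library lay above every PD library, and the PWOFC range overlapped that of CTRL, with 8233, 5179 and 9404 CPM. CWOFP libraries were lower, with 3337, 3792 and 1549 CPM. Yp2 (2.11) and Yp1 (1.21) rose as well, Yp1 by less than 1 with upper quartile scaling. Fit had 4.24, 9.82 and 5.002 CPM in PD and 54.9, 46.1 and 63.8 CPM in PWOFC, while it went from 106, 46.1 and 57.5 CPM in CTRL to 3.32, 11 and 5.55 CPM in CWOFP. Its interaction was 6.48 (adjusted p = 0.00121), with the group means moving in opposite directions. For the 3 yolk genes too, the change from PD to PWOFC differed from that between CTRL and CWOFP, by 2.33 (adjusted p = 0.00396) for Yp1, 3.43 (adjusted p = 0.00121) for Yp2 and 3.69 (adjusted p = 0.00169) for Yp3.

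Of 27 vitelline membrane and chorion genes, which follicle cells express in late oogenesis, 16 rose and none fell (median 2.72), and 18 passed the interaction upwards. Vm32E, a vitelline membrane gene on chromosome 2L, rose from 44, 15.2 and 39.9 CPM to 186, 316 and 138 CPM (log2 fold change 2.67 ± 0.53 SE, adjusted p = 0.00671). CTRL libraries had 193, 242 and 209.7 CPM and CWOFP libraries 48.6, 55.1 and 41 CPM. The list had fallen from CTRL to PD in 12 members (median -2.70) and from CTRL to CWOFP in 8 (median -1.68). The summed level was 10840 to 19360 CPM in CTRL, 2123 to 2375 CPM in PD and 4297 to 7113 CPM in CWOFP. PWOFC1 and PWOFC2 lay above the CTRL range, while PWOFC3, at 7343 CPM, lay near the top of the CWOFP range. Cp7Fa lost its call when any one of PD1, PD2, PD3 and PWOFC1 was left out, with adjusted p between 0.0502 and 0.0671.

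Germline genes of the ovary rose in 19 of 23 (median 1.37), and none fell. Nanos, which encodes a translational repressor needed for germ cells and for the posterior of the embryo, rose from 38.3, 44.3 and 55.4 CPM to 256, 293 and 165 CPM (log2 fold change 2.35 ± 0.228 SE, adjusted p = 9.14e-05). Bcd, whose transcript is stored at the anterior pole of the egg, stood at 109.9, 108 and 83.8 CPM in PWOFC, above its PD maximum of 32.4 CPM (log2 fold change 1.92 ± 0.287 SE, adjusted p = 0.000668). In neither gene did the 2 groups overlap. Unlike the yolk and eggshell lists, the germline list had a median near 0 from CTRL to CWOFP (0.06), and 20 members passed the interaction upwards. A list of DNA replication genes written after values had been seen rose in 18 of 23 members (median 1.38). RnrL, the large subunit of ribonucleotide reductase, went from 58.9, 103 and 109 CPM to 323, 305 and 244 CPM (log2 fold change 1.66 ± 0.226 SE, adjusted p = 0.000317).

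Among male transcripts, those of the testis moved against these lists and those of the accessory gland were mixed. Of 23 testis genes, 19 fell and none rose (median -1.62). Mst87F, a protein gene of the sperm tail, was at 129.9, 120.1 and 88.2 CPM in PD and at 17.4, 36.5 and 22.4 CPM in PWOFC (log2 fold change -2.17 ± 0.274 SE, adjusted p = 0.000322). The don juan gene dj fell from 131, 121 and 109.8 CPM to 25.7, 54.8 and 34.4 CPM (log2 fold change -1.67 ± 0.248 SE, adjusted p = 0.000463). From CTRL to CWOFP the testis list held no DET (median -0.11), and 16 members passed the interaction downwards. Of 16 tested genes on chromosome Y, 13 fell (median -1.53), and 13.1% of the 1983 tested genes on X rose, against 9.64% of all genes. The roX RNAs of the male dosage compensation complex fell, roX1 from 129, 112 and 135 CPM to 44.6, 82.5 and 60.1 CPM and roX2 from 3.77, 2.93 and 3.28 CPM to 1.16, 1.18 and 1.27 CPM. The roX1 change of -1.02 was near the fold threshold and short of it without PD3, PWOFC1 or PWOFC3. Accessory gland genes, also male, included 6 of 43 higher and 7 lower (median -0.12, and 0.16 with ribosomal protein scaling), beside 9.64% and 23.3% of all genes. Acp76A, a serpin of the seminal fluid, rose from 9.48, 5.93 and 7.31 CPM to 45.3, 94.2 and 33 CPM (log2 fold change 2.90 ± 0.429 SE, adjusted p = 0.00119). Equal numbers of both sexes were used by the study's account. The share of each sex among the flies of a single library was not measured apart from these genes, and its part in the ovary and testis changes was not tested.

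**Figure D2:**
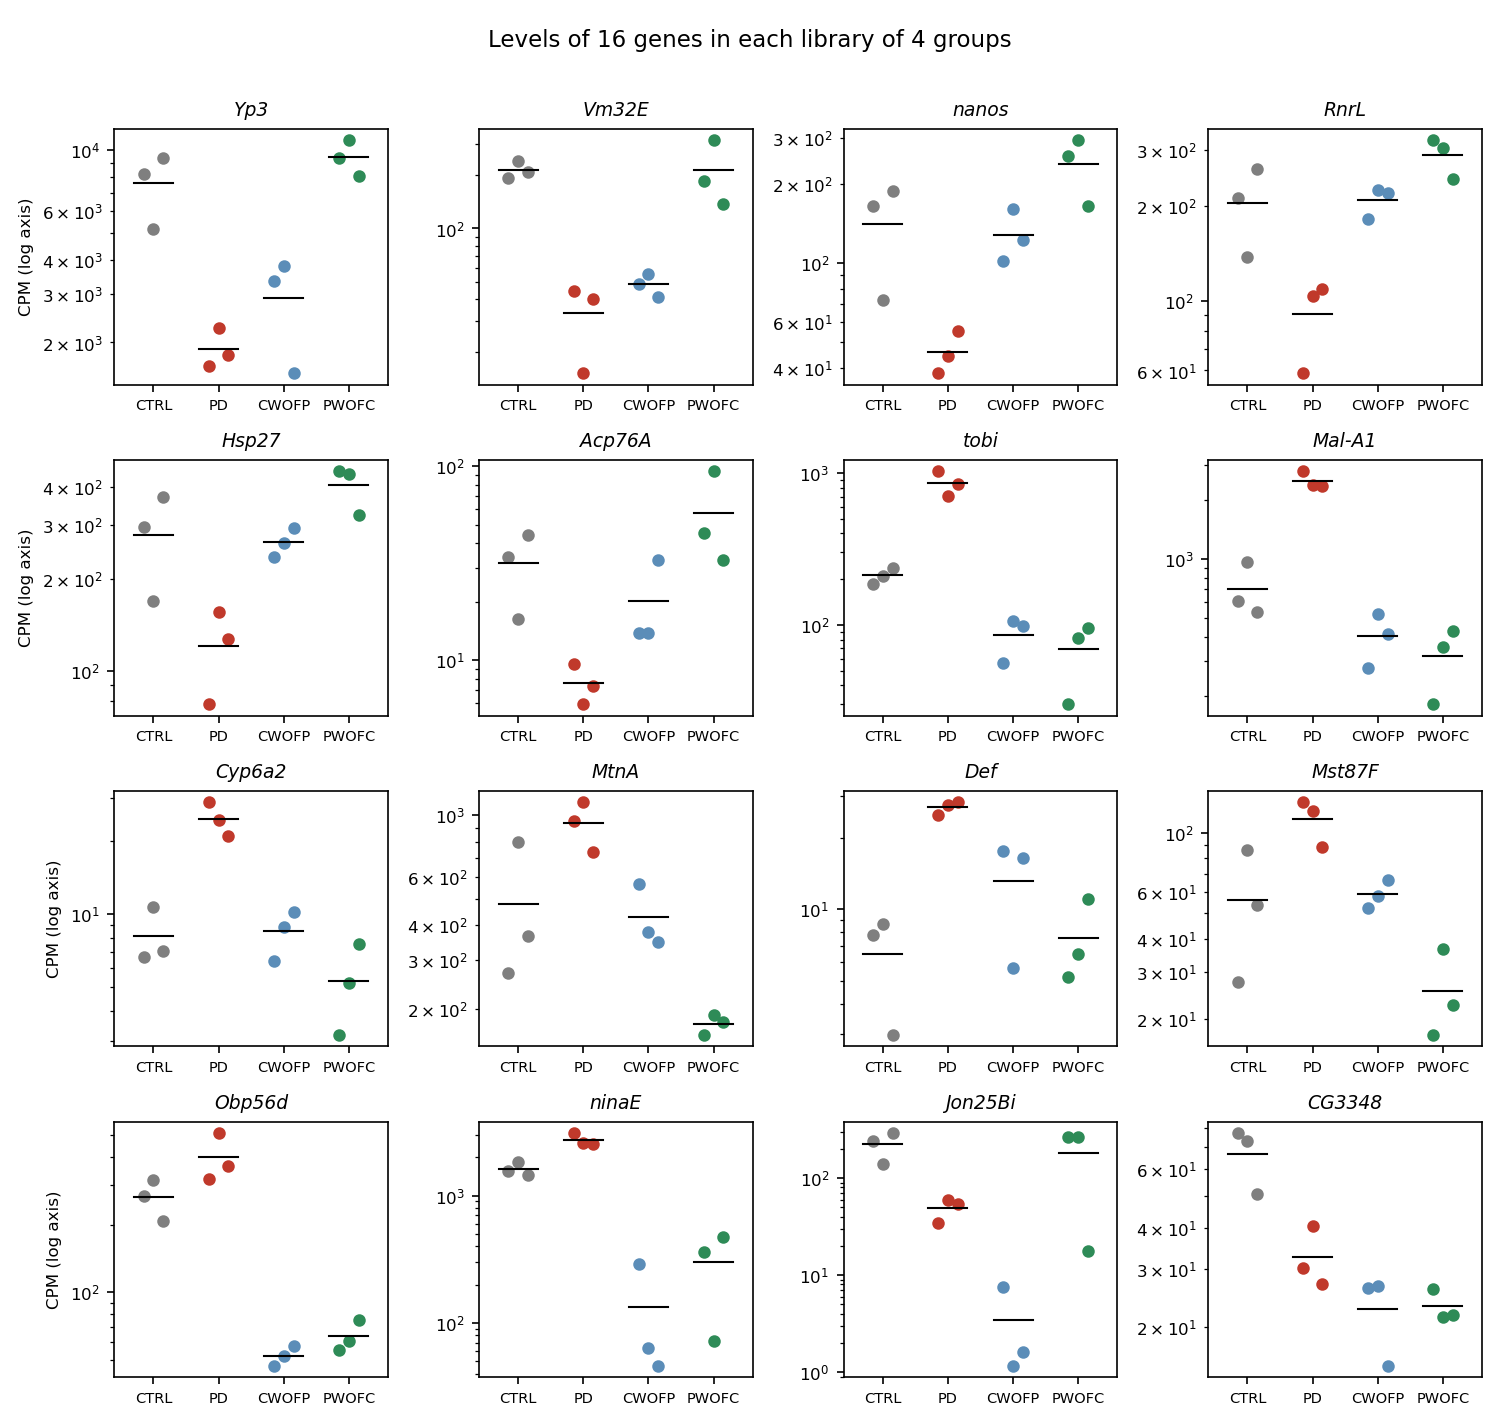
Levels of 16 genes in CPM on log axes, one point per library for CTRL, PD, CWOFP and PWOFC (3 libraries each), with a line at each group mean. The means of Yp3, Vm32E, nanos, RnrL, Hsp27 and Acp76A are lowest in PD, those of tobi, Mal-A1, Cyp6a2, MtnA, Def and Mst87F highest in PD, Obp56d and ninaE are low in both day 14 groups, Jon25Bi is lowest in CWOFP, and CG3348 is highest in CTRL.

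Genes for the digestion of starch and sugars fell in 13 of 14 tested members (median -2.64), and none rose. The alpha-glucosidase gene tobi, on chromosome 3R at 25344761 to 25346921, fell from 1027, 712 and 850.3 CPM to 30.2, 82.2 and 95.8 CPM (log2 fold change -3.66 ± 0.474 SE, adjusted p = 0.00119). The maltase gene Mal-A1 fell from 2790, 2376 and 2336 CPM to 182, 356 and 426 CPM (log2 fold change -2.98 ± 0.293 SE, adjusted p = 0.000188). At the end of feeding 8 of the 14 had been higher in PD than in CTRL, where tobi was at 187, 210.4 and 238 CPM, and all PWOFC libraries lay below those, a difference of -1.62 (adjusted p = 0.072) from CTRL that did not pass the test. Mal-A8 (-3.32), Amyrel (-3.48) and Mal-B1 (-3.17) fell by similar amounts. In that list 3 members fell from CTRL to CWOFP, and 8 passed the interaction downwards, with values of -2.37 (adjusted p = 0.00924) for tobi and -2.19 (adjusted p = 0.00866) for Mal-A1. The amylase gene Amy-d, named after its values were seen, passed it upwards (1.60 (adjusted p = 0.0368)). The amylase gene Amy-p fell in both settings, from 1454, 1421 and 1233 CPM in PD to 312, 209 and 410.5 CPM in PWOFC and from 773, 1016 and 603 CPM in CTRL to 136, 64.6 and 44.4 CPM in CWOFP, and its interaction missed the threshold (adjusted p = 0.0942). The 9 markers of enterocytes and gut lumen share members with the gut lists, among them Mal-A1, Amy-p and Jon25Bi. From PD to PWOFC 5 of the 9 fell, and 3 had a change above 0. Their summed level was between 10710 and 13750 CPM in PD and between 3801 and 6655 CPM in PWOFC. In flies without rotenone 6 fell, from between 9878 and 12080 CPM in CTRL to between 2167 and 3267 CPM in CWOFP. The interaction was passed upwards by 4 and downwards by 1. The part of enterocytes in these changes was not tested. Of 23 lipase genes 8 fell and 1, CG11600, rose, beside 23.3% and 9.64% of all genes. CG6277, annotated here only as a member of the lipase list, fell from 137, 153 and 118 CPM to 12.4, 17.1 and 16.2 CPM (log2 fold change -3.18 ± 0.177 SE, adjusted p = 1.11e-05). Exons of tobi, Mal-A1, Mal-A8 and Amyrel overlap exons of another counted gene, and the library kit does not mark strand, so reads of overlapping genes cannot be told apart there.

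Jonah proteases, which digest protein in the gut, and lysosomal alpha-mannosidases stood apart from this pattern in that few or none were DETs from PD to PWOFC while most fell in flies without rotenone. None of 16 Jonah genes was a DET from PD to PWOFC in the main fit, with a median of -0.05. That median was -0.45 without PWOFC2 and 0.18 with ribosomal protein scaling. From CTRL to CWOFP 13 fell (median -3.19), and 12 passed the interaction upwards. Jon25Bi, on chromosome 2L at 4954279 to 4955144, had 34.7, 59.3 and 53.5 CPM in PD and 265, 264 and 17.6 CPM in PWOFC, with PWOFC3 below all PD libraries and PWOFC1 and PWOFC2 above them (log2 fold change 1.87 ± 1.07 SE, adjusted p = 0.192). In CTRL it had 239.9, 140.0 and 290.4 CPM and in CWOFP 7.57, 1.16 and 1.62 CPM. Without PWOFC3 the rises of Jon25Bi and Jon25Bii passed the test, at 2.41 (adjusted p = 3.62e-05) and 2.67 (adjusted p = 1.79e-05). Jon99Ciii was at 556, 1132 and 871 CPM and 1389, 1768 and 222 CPM, also with PWOFC3 lowest. These 3 genes passed the interaction upwards, at 7.88 (adjusted p = 0.00757) for Jon25Bi, 8.49 (adjusted p = 0.00393) for Jon25Bii and 4.26 (adjusted p = 0.0119) for Jon99Ciii. Of 6 alpha-mannosidase genes, 1 fell from PD to PWOFC, while all 6 fell from CTRL to CWOFP (median -4.12) and all 6 passed the interaction. This one, LManV, was at 307, 404 and 465 CPM in PD and 156, 192 and 55.1 CPM in PWOFC (log2 fold change -1.56 ± 0.482 SE, adjusted p = 0.033), and it lost its call without any one of 5 libraries (PD1, PD2, PD3, PWOFC1 and PWOFC2). Near-identical neighbors such as Jon99Cii and Jon99Ciii may share reads, so single levels within the family are uncertain. Alpha-trypsin, another gut protease gene, fell from PD to PWOFC (-1.10) and from CTRL to CWOFP (-1.44), and was short of the fold threshold without PD2 or PWOFC3.

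Detoxification genes are given beside the 23.3% of all genes that fell and the 9.64% that rose. Of 77 cytochrome P450 genes 34 fell and 4 rose (median -0.83), of 33 glutathione transferase genes 9 fell (median -0.61), and of 31 UDP-glycosyltransferase genes 10 fell and 1 rose (median -0.42). Cyp6a2, a P450 of the midgut and fat body linked to insecticide resistance, fell from 28.9, 24.3 and 21 CPM to 3.19, 5.2 and 7.56 CPM (log2 fold change -2.23 ± 0.287 SE, adjusted p = 0.000242). It had been at 6.69, 10.7 and 7.04 CPM in CTRL, which PWOFC libraries overlapped. GstD5 fell from 17, 17.4 and 10.9 CPM to 1.42, 2.73 and 2.73 CPM (log2 fold change -2.74 ± 0.304 SE, adjusted p = 0.000131), and Ugt37A2 from 48, 58.6 and 26.3 CPM to 9.26, 6.84 and 12.5 CPM (log2 fold change -2.23 ± 0.32 SE, adjusted p = 0.00049). Ugt37A2 had the largest rise of any DET at the end of feeding (3.08 from CTRL to PD), and its PWOFC libraries remained above all CTRL libraries, at 3.93, 6.02 and 5.76 CPM, without passing the test. All 3 genes and Ugt37D1 passed the interaction downwards, with values of -2.30 (adjusted p = 0.00702) for Cyp6a2, -4.09 (adjusted p = 0.0115) for GstD5, -3.98 (adjusted p = 0.00286) for Ugt37A2 and -1.78 (adjusted p = 0.0063) for Ugt37D1. Cyp4d21, another P450 gene, fell from 23.3, 30.8 and 24.1 CPM to 1.11, 3.65 and 2.19 CPM, and from 33.4, 31.8 and 30.8 CPM in CTRL to 2.49, 2.15 and 4.46 CPM in CWOFP, with an interaction of -0.12 (adjusted p = 0.857). Cyp313a1 changed by -2.66 (adjusted p = 1.2e-05) from PD to PWOFC and by -2.35 (adjusted p = 0.0936) from CTRL to CWOFP.

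Metal-binding, redox and chaperone genes were mixed, and their counts stand beside the 9.64% of all genes that rose and the 23.3% that fell. Of 6 metallothionein-related genes, 3 fell. MtnA, the main metallothionein, on chromosome 3R at 9783407 to 9784370, fell from 949, 1111 and 735 CPM to 161, 191 and 179 CPM (log2 fold change -2.42 ± 0.173 SE, adjusted p = 1.58e-05), below the CTRL range of 269, 799 and 368 CPM. MtnC (-1.55, and -0.94 without PD2) and MtnE (-1.29) fell too. Of 19 heat shock genes 3 rose and 3 fell. The alpha-crystallin-type chaperone gene l(2)efl fell from 399.6, 458 and 267 CPM to 67.5, 75.5 and 68.4 CPM (log2 fold change -2.43 ± 0.196 SE, adjusted p = 3.01e-05), close to its CTRL level of 72.4, 119 and 80.4 CPM. Hsp67Bc (-1.80) fell likewise. The small heat shock gene Hsp26 rose from 168, 326 and 229 CPM to 898, 779 and 614 CPM (log2 fold change 1.64 ± 0.238 SE, adjusted p = 0.000426), and Hsp27 by 1.73. Hsp83 (1.03) was near the threshold and fell under it without PD1, PD2 or PWOFC1. Hsp70Bb, Hsp70Bbb and Hsp70Bc, near-identical copies whose reads may be shared, had been higher in PD than in CTRL by 1.77, 2.32 and 2.10, and differed from PD after withdrawal by -0.46, -0.89 and -0.43, none a DET. Of 13 genes of the endoplasmic reticulum, Hsc70-3, the chaperone BiP, was the 1 that rose, from 502, 455 and 596 CPM to 1233, 1269 and 935 CPM (log2 fold change 1.13 ± 0.162 SE, adjusted p = 0.000332). Of 20 antioxidant genes, Sod3 (1.29), Duox (1.66) and Nox (1.78) rose, while Prx1 (-1.61) and TrxT (-1.76), a thioredoxin of the testis, fell.

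All DETs among the immune effector genes listed were lower in PWOFC. Their counts are given beside the 23.3% of all genes that fell. Of 16 Bomanin and Turandot genes, small secreted peptides of the Toll response and of stress, 12 fell (median -1.67), and of 16 antimicrobial peptide genes 5 fell (median -1.68). The latter count was 13 without PWOFC3 and 3 without PWOFC1 or PWOFC2, 13 in limma voom and 10 with the replicate block, and the former was 16 without PWOFC3, 8 without any one of PD1, PD3 and PWOFC1, and 7 with all 18 libraries in one fit. Def, which encodes defensin, fell from 24.9, 27.5 and 28.2 CPM to 5.21, 6.48 and 11 CPM (log2 fold change -1.84 ± 0.256 SE, adjusted p = 0.000294), against 7.82, 8.67 and 2.96 CPM in CTRL. BomS6 fell from 43.3, 57.8 and 47.7 CPM to 10.02, 8.13 and 18.1 CPM (log2 fold change -2.05 ± 0.276 SE, adjusted p = 0.000332). The other 4 antimicrobial peptide genes that fell were AttB (-3.08), CecA1 (-1.98), CecA2 (-1.73) and Drsl4 (-1.75), and AttB lost its call without PWOFC1 or PWOFC2 (adjusted p = 0.0692 and 0.0741). From CTRL to CWOFP neither list held a DET. TotM fell from 41.6, 15.1 and 27.5 CPM to 7.49, 3.55 and 3.51 CPM, but CTRL2 held 1371 CPM against 4.39 and 2.29 CPM in CTRL1 and CTRL3, so that its place relative to CTRL could not be given.

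Many eye and odorant-binding genes fell after withdrawal, and a part of them also fell in flies without rotenone. Of 20 photoreceptor genes 13 fell (median -2.65), 8 fell from CTRL to CWOFP (median -1.88), and none passed the interaction. NinaE, the major rhodopsin of the outer photoreceptors, on chromosome 3R at 19886255 to 19888206, fell from 3089, 2574 and 2549 CPM in PD to 357, 72.6 and 470.0 CPM in PWOFC (log2 fold change -3.21 ± 0.763 SE, adjusted p = 0.0189). In CTRL it had 1557, 1819 and 1448 CPM and in CWOFP 290.0, 63.1 and 46 CPM. The fall lost its call without PD1 or PWOFC1 (adjusted p = 0.0724 and 0.0758), and library 2 was the lowest in PWOFC. The protein kinase C gene inaC fell from 55.8, 49.6 and 50.3 CPM to 5.37, 1.23 and 7.15 CPM (log2 fold change -3.51 ± 0.564 SE, adjusted p = 0.00265), and the channel gene trp fell by 2.70. Of 32 odorant-binding protein genes 20 fell (median -1.25), and 4 fell from CTRL to CWOFP. Of 33 tested in the interaction, 12 passed it downwards and 2 upwards. Obp56d went from 319, 510.5 and 366 CPM to 55.2, 60.5 and 75.3 CPM (log2 fold change -2.67 ± 0.1999 SE, adjusted p = 1.93e-05) and from 269, 316 and 208 CPM in CTRL to 47.1, 52.1 and 57.7 CPM in CWOFP (-2.27), with an interaction of -0.33 (adjusted p = 0.352). Obp19b fell by 3.23.

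Chemosensory and neuropeptide genes were also among the 12 largest falls. CheB38b and CheB93a belong to a family of chemosensory proteins, and CheB38b fell from 4.16, 4.81 and 3.74 CPM to 0, 0.154 and 0 CPM. Crz, the neuropeptide corazonin, fell from 5.44, 3.97 and 4.08 CPM to 0.253, 0.0514 and 0.41 CPM (log2 fold change -4.20 ± 0.449 SE, adjusted p = 0.000116). Ilp2, an insulin-like peptide of neurosecretory cells in the brain, fell from 4.74, 4.85 and 3.57 CPM to 0.354, 0.0514 and 0.364 CPM (log2 fold change -4.07 ± 0.442 SE, adjusted p = 0.00012), and from 1.75, 2.62 and 1.96 CPM in CTRL to 0.0875, 0.43 and 0.175 CPM in CWOFP. These genes were named by a rule that asks for no overlap between groups, and the interaction of none of the 3 passed the threshold (adjusted p = 0.113 for CheB38b, 0.175 for Crz and 0.349 for Ilp2). Ilp5 (-2.52) and Pdf (-2.59), a peptide of clock neurons, fell too. The remaining genes at this end were CG14329 with 24, 42 and 26 counts in PD and none in PWOFC (at least 8.38-fold lower against 3 counts per library), CG15263 (-5.09), CG34040 (-4.77), CG14607 (-4.64), CheB93a (-4.57), the cuticle protein gene Cpr11B (-4.52), the lipase gene Lip3 (-4.48), CG17107 (-4.07) and the noncoding lncRNA:CR32553 (-4.02). CG15263 lost its call without PD1 or PWOFC2 (adjusted p = 0.0571 and 0.0702).

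Of 72 receptor genes for neurotransmitters and peptides 35 fell and none rose (median -0.95), 19 passed the interaction downwards, and from CTRL to CWOFP 1 fell (median 0.02). The synaptic vesicle gene nSyb fell from 136, 114 and 144 CPM to 27.5, 24.4 and 39.1 CPM (log2 fold change -2.14 ± 0.192 SE, adjusted p = 4.9e-05), and it fell by 1.58 from CTRL to CWOFP. Syt1, the calcium sensor of vesicle release, fell by 1.18. Of 6 neuron markers 3 fell, and their summed level was between 198.5 and 277.1 CPM in PD and between 74.2 and 101.9 CPM in PWOFC. In flies without rotenone that sum was between 139.1 and 222.1 CPM in CTRL and between 74.1 and 117.1 CPM in CWOFP. Of 13 dopamine genes 8 fell (median -1.15), and 2 passed the interaction downwards. From CTRL to CWOFP no dopamine gene was a DET (median -0.495). The receptor gene DopEcR went from 27.2, 24.1 and 28.8 CPM to 9.82, 6.94 and 10.2 CPM (log2 fold change -1.59 ± 0.196 SE, adjusted p = 0.000198), and ebony (e), which conjugates dopamine to beta-alanine, from 19.1, 20.6 and 21.6 CPM to 4.05, 2.31 and 5.78 CPM (log2 fold change -2.35 ± 0.288 SE, adjusted p = 0.000198). DopEcR did not pass the interaction (adjusted p = 0.0656), and e passed it but kept it in only 5 of 12 fits with a library left out. Tyrosine hydroxylase (ple) was at 36.7, 30.1 and 38.6 CPM and 18.6, 22.6 and 23.9 CPM, a difference of -0.71 (adjusted p = 0.00352) that stayed under the fold threshold. The clock genes per (-1.24) and tim (-1.25) fell, and neither passed the interaction. The time of day at which flies were taken is not given, so its part was not tested. The insulin and adipokinetic hormone list had 5 of 14 lower, beside 23.3% of all genes. In it Akh, the adipokinetic hormone, fell by 1.55. Thor, the translational repressor 4E-BP, fell from 519, 569.6 and 490.2 CPM to 200.4, 182 and 279 CPM (log2 fold change -1.28 ± 0.17 SE, adjusted p = 0.000252).

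Mitochondrial and housekeeping lists held few DETs. Counts in this paragraph stand beside the 23.3% of all genes that fell and the 9.64% that rose. Of 35 complex I subunit genes, the enzyme rotenone blocks, 3 fell and none rose (median -0.56, and 0.41 from CTRL to PD). These were ND-B8 (-1.05), ND-24L (-1.59) and ND-49L (-1.09). ND-24L and ND-49L are paralogs of standard subunits, as were 4 of the 5 genes that fell among 34 genes of complexes III and IV and ATP synthase, COX6AL (-1.38), COX6CL (-2.16), COX7AL (-1.47) and ATPsynepsilonL (-1.33), beside ox (-1.21). With all 18 libraries in one fit 0 complex I genes and 1 of the others were DETs, and with upper quartile scaling 9 and 11. The complex I count was 1 without PWOFC1 or with ribosomal protein scaling. ND-B8 lost its call without 4 of the 6 libraries, the exceptions being PD2 and PWOFC2. The tissue in which the paralogs fell was not tested. None of 76 cytosolic ribosomal protein genes (median -0.29), 32 proteasome subunits (median 0.45) and 19 mitophagy and parkinsonism genes (median 0.25, and -0.05 with upper quartile scaling) was a DET in edgeR's test. Park, the fly parkin, was at 5.44, 4.49 and 5.55 CPM in PD and 5.67, 4.63 and 4.74 CPM in PWOFC (adjusted p = 0.818), and the ubiquitin ligase gene Mul1 at 26.9, 27.3 and 21.3 CPM and 21.2, 19.9 and 20.6 CPM (adjusted p = 0.112). Of 7 genes of tyrosine breakdown 5 fell (median -1.19). Hgo, homogentisate dioxygenase, fell from 78.9, 59.2 and 53.1 CPM to 18.4, 19.4 and 26.3 CPM (log2 fold change -1.60 ± 0.194 SE, adjusted p = 0.000192), followed by Hpd (-1.55), Faa (-1.54), GstZ2 (-1.19) and Hn (-1.18). Hgo and Hpd also fell from CTRL to CWOFP (log2 fold changes -1.42 and -1.63), and neither passed the interaction. Ldh, lactate dehydrogenase, fell from 138, 97.2 and 93.9 CPM to 36.1, 30.8 and 53.8 CPM (log2 fold change -1.47 ± 0.229 SE, adjusted p = 0.000517) while it changed by 0.25 from CTRL to CWOFP. Of 23 sarcomere genes 3 fell, among them Act79B (-1.26).

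**Figure D3:**
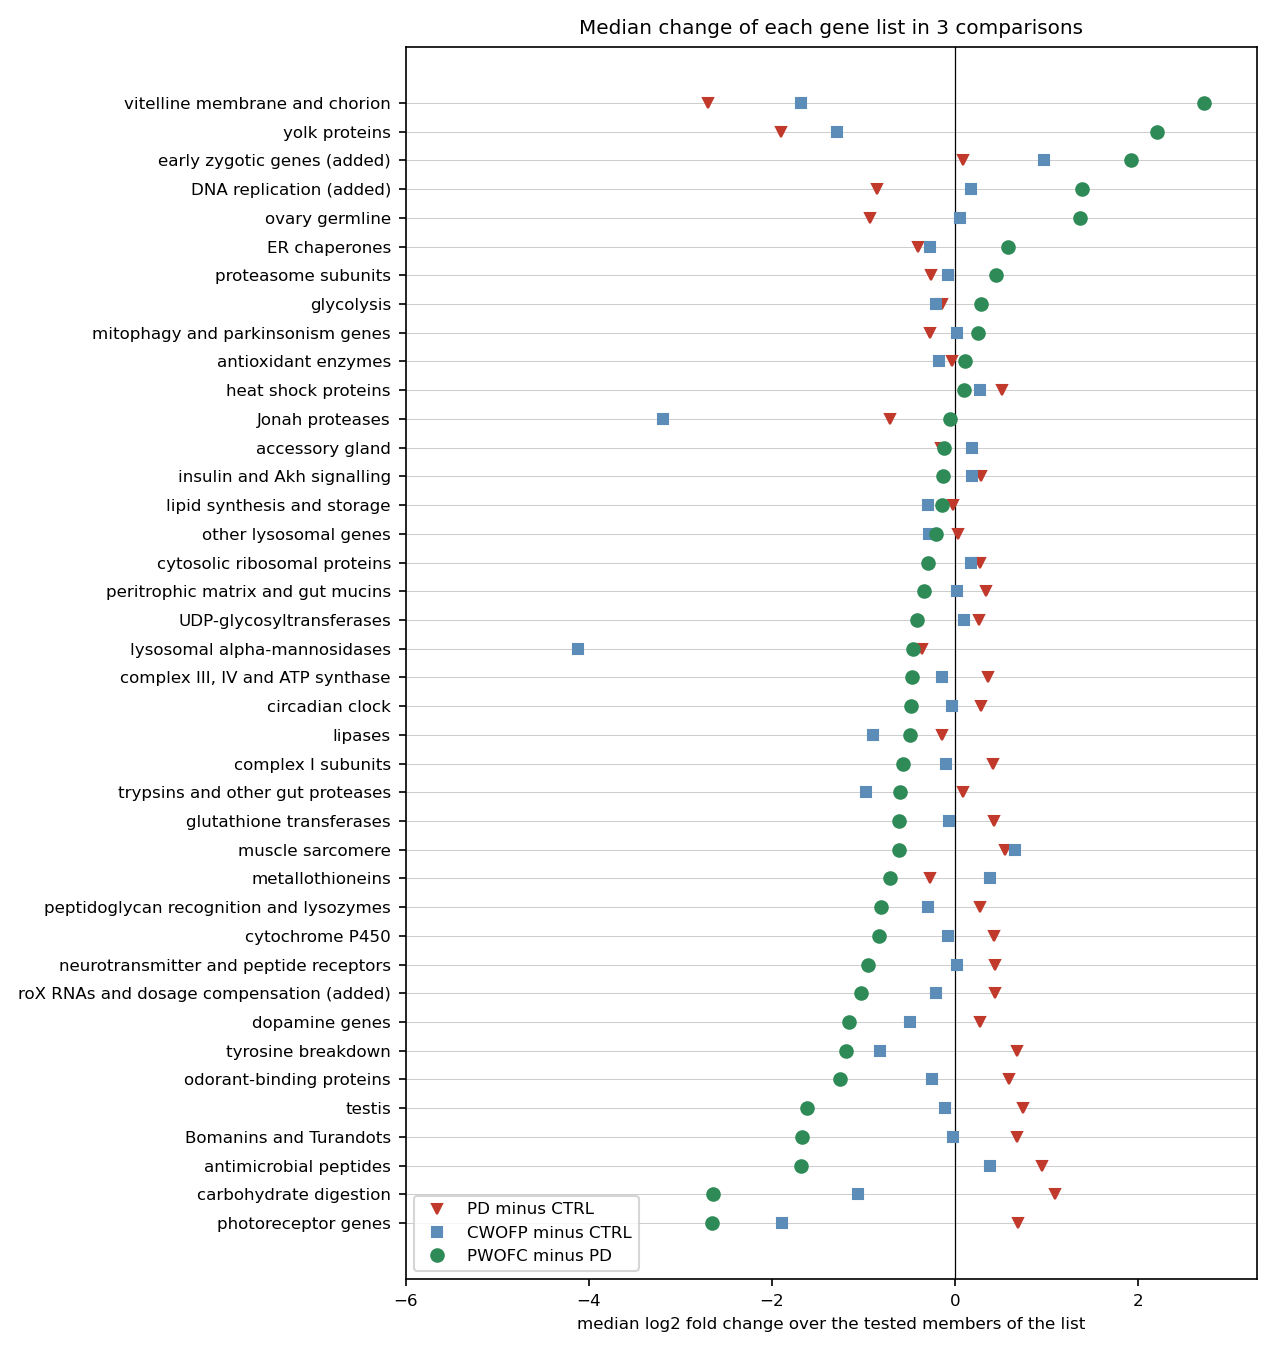
Median log2 fold change of the tested members of 40 gene lists (y axis, sorted) in 3 comparisons, with circles for PWOFC minus PD, triangles for PD minus CTRL and squares for CWOFP minus CTRL. Lists at the top (eggshell 2.72, yolk 2.20) rose from PD to PWOFC, those at the bottom (photoreceptor -2.65, carbohydrate digestion -2.64) fell, and Jonah proteases (-3.19) and alpha-mannosidases (-4.12) were lowest from CTRL to CWOFP.

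The 285 genes that differed between PD and CTRL, 138 higher and 147 lower in PD, show where genes that differed at the end of feeding stood after withdrawal. Of these, 243 (85.3%) returned, meaning that they changed from PD to PWOFC in the opposite direction and were not DETs between PWOFC and CTRL, where 6 of them did not pass the filter on low counts and were not tested. A further 8 overshot, 2 stayed changed, 0 moved further, and 32 could not be resolved. The number returned was 28, 58, 65 and 100 without PD2, PD1, CTRL3 and CTRL1, and 1355 without CTRL2, following the number of genes that passed the first comparison. PD libraries enter both contrasts, so some return follows from the choice of the genes, and these counts are a description. On the scale of group means, with 1 at the PD level and 0 at the CTRL level, the median position of PWOFC was -0.20. By this measure 118 genes were back at CTRL (-0.25 to 0.25), 130 beyond it, 30 partway, 5 at the PD level and 2 further away. Genes that had been higher in PD went further past CTRL (median -0.35) than those that had been lower (median -0.14). Of the 285 genes, 243 passed the interaction in the direction opposite to the rotenone effect, 0 passed it in the same direction, 41 did not pass, and 1 was not tested there. The interaction holds the PD minus CTRL difference with its sign reversed, so this direction also follows in part from the choice of the genes. Of all 12817 genes tested there, 1355 passed it upwards and 1516 downwards. The PWOFC minus CWOFP difference shares no library with the PD minus CTRL difference. Its sign was opposite in 246 of 276 tested genes (89.1%), and in 80.2% of all 12183 genes tested in both.

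**Figure D4:**
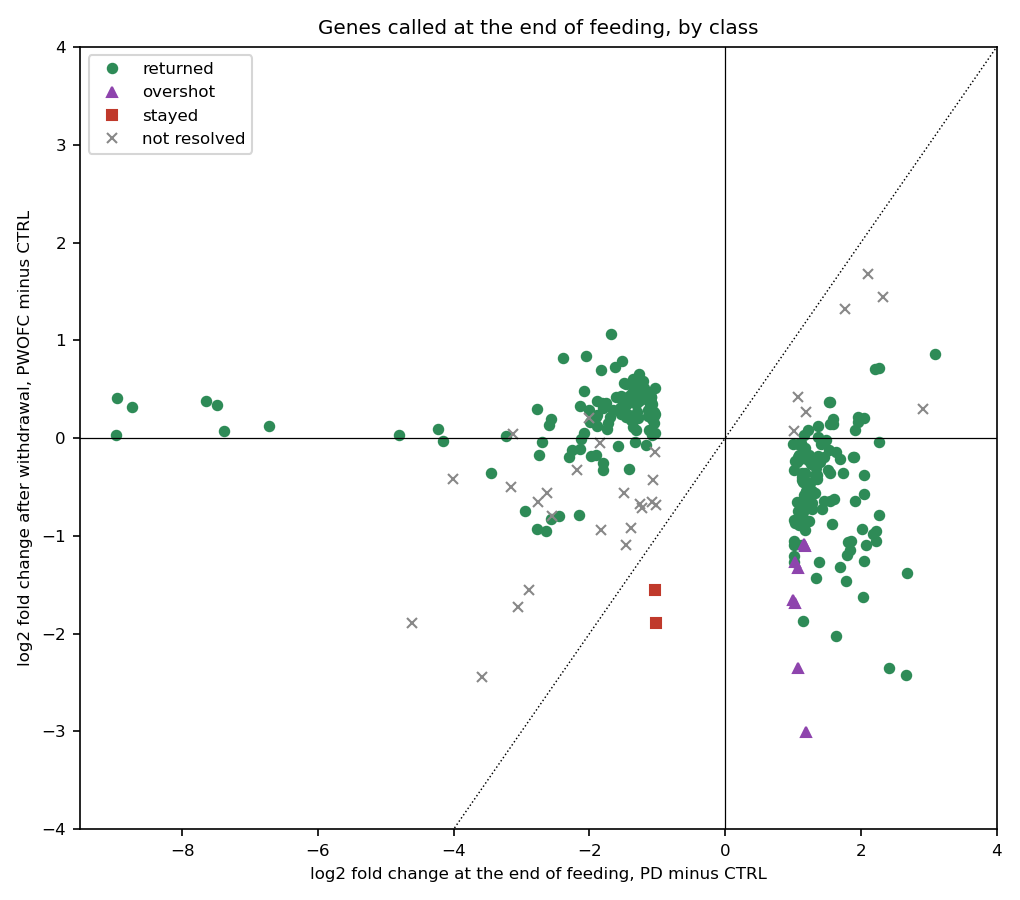
Log2 fold change at the end of feeding (PD minus CTRL, x axis) against that after withdrawal (PWOFC minus CTRL, y axis) for 277 of the 285 genes, one point per gene with its class as shape and color. The dotted line marks no return and the horizontal line full return, 8 genes not tested in PWOFC against CTRL are not drawn, and both axes share the CTRL libraries.

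Returned genes include CG12716 (-8.97 from CTRL to PD) and the eggshell genes CG4066 (-8.96), CG13084 (-8.73) and Cp7Fa (-7.66), which had the 4 largest falls during feeding. CG13084 had 176, 70.4 and 209.7 CPM in CTRL, which the PWOFC levels given above span. All 8 genes that overshot had been higher in PD. Obp49a, an odorant-binding protein also involved in the taste of bitter compounds, went from 19.1, 28 and 17.4 CPM in CTRL to 37.7, 54.6 and 44 CPM in PD and to 3.29, 3.24 and 6.1 CPM in PWOFC. CG9701 went from 22.2, 20.8 and 20.1 CPM to 43, 47.2 and 51.7 CPM and then to 8.55, 8.64 and 12.3 CPM, with no overlap between the groups. The others were Crz, CG5107, CG33110, EbpIII, Mal-A3 and Ugt35C1, with PWOFC minus CTRL differences between -3.005 and -1.08. Obp49a (-1.89), CG5107 (-2.81), CG33110 (-1.24) and EbpIII (-1.72) also fell from CTRL to CWOFP, and the differences of Crz (-2.76 (adjusted p = 0.0517)) and Mal-A3 (-1.74 (adjusted p = 0.052)) had the same sign and missed the threshold. The number that overshot was 2 without PD1, and 0 without CTRL1, CTRL3, PD2 or PWOFC1.

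The 2 genes that stayed changed were both lower in PD, and in both the PWOFC mean lay below the PD mean. CG3348, on chromosome 3R at 27291535 to 27292209, had 77.3, 72.9 and 50.5 CPM in CTRL, 30.2, 40.5 and 27 CPM in PD and 26.1, 21.4 and 21.8 CPM in PWOFC. Atk, which encodes a leucine-rich repeat protein, had 9.18, 7.54 and 10.2 CPM in CTRL, 3.54, 4.21 and 5.51 CPM in PD and 1.77, 3.96 and 1.69 CPM in PWOFC. Both also fell from CTRL to CWOFP, with changes of -1.49 (adjusted p = 0.0325) for CG3348 and -1.94 (adjusted p = 0.0157) for atk, and PWOFC and CWOFP levels overlapped in both. Their exons overlap those of other counted genes (Hmu for CG3348, CG42764 and Uhg8 for atk). Atk passed the test from PD to PWOFC, and so left this class, without PWOFC2 (-1.36, adjusted p = 0.0011). The number that stayed was 4 without PWOFC2, 1 without PWOFC3, and 0 without any one of CTRL1, CTRL2, CTRL3, PD1, PD2 and PWOFC1. Among the unresolved genes were the 4 Jonah genes that had fallen during feeding, whose positions were between 0.46 and 1.00.

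Against flies of the same age, 4 genes differed in PWOFC. Mal-B1, a maltase gene, was at 24, 32.6 and 28.8 CPM in PWOFC and 95, 101 and 93.2 CPM in CWOFP (log2 fold change -1.90 ± 0.125 SE, adjusted p = 0.00327). Obp19d was at 43.4, 49.6 and 53 CPM and 93.9, 96.1 and 105 CPM (log2 fold change -1.16 ± 0.108 SE, adjusted p = 0.0227). The protease gene CG18179 was higher in PWOFC, with 19, 17.6 and 12.2 CPM against 0.262, 0.301 and 0.35 CPM (log2 fold change 5.57 ± 0.309 SE, adjusted p = 0.00191), and so was CG31077, with 72.9, 52.7 and 68 CPM against 8.97, 7.05 and 11.3 CPM (log2 fold change 2.68 ± 0.212 SE, adjusted p = 0.00897). In none of these genes did the groups overlap, which holds for 39.5% of all genes tested. Mal-B1 had been higher and CG18179 lower in PD than in CTRL, so that for both the sign of the difference from unexposed flies of the same age was opposite before and after withdrawal. The count of DETs between PWOFC and CWOFP was 2 without PWOFC1 or PWOFC3, and 12, 23 and 11 without CWOFP1, CWOFP2 and CWOFP3.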

How the data were processed

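Poly(A) RNA of whole w1118 flies was sequenced with a kit that does not mark strand. Per the labels and methods the authors trimmed reads with cutadapt (at least 30 nt kept), mapped them with HISAT2 to dm6 and counted reads per gene with featureCounts. The labels also name FastQC, StringTie 1.3.1 and DESeq2 1.36.0, and the labels and methods differ on the sequencing instrument. The deposited table holds raw counts per gene identifier for 18 libraries, of which 12 were used here, with 17920498 to 29165130 counts each. Samples of 6 further labelled libraries were not analysed here. Tool versions for mapping and counting are not given in the sources used here.

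Counts were tested with edgeR 4.0.16 (R 4.3.3) after filterByExpr and TMM scaling with robust quasi-likelihood fits. P-values were adjusted by Benjamini-Hochberg over all genes tested, and a DET had adjusted p below 0.05 and a change beyond 1 log2 unit either way. Each of 5 comparisons was fitted on its own 6 libraries, and the interaction on 12. Same-group libraries differed by more than sampling noise (chi-square per degree of freedom 22.4 to 158.5 over 12 pairs). Symbols and positions came from Ensembl release 115 (BDGP6.54, the dm6 assembly) and matched 17556 of 17611 identifiers. Alternatives were DESeq2 1.42.0, limma 3.58.1 voom, other scalings, no filter, one fit of 18 libraries, a replicate block and leaving out each library. The scripts were tested on simulated data.

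Genes were named by rule: the 12 at each end with no overlap between groups and at least 10 counts in each higher library, up to 4 per list and per class, 4 at each end of the interaction, and the genes the study measured by RT-qPCR. Mal-B1, Obp19d, CG18179, CG31077, MtnE, Hsp83, Sod3, ox, CecA2, Hn, Amy-d, CG11600, EbpIII, Mal-A3, CG33110 and the Hsp70B genes are named beyond it, after their values were seen. The comparison and the 37 gene lists, 13 marker lists and 3 lists called added were chosen with earlier results of these data known.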

Additional observations from a re-analysis of the deposited data

Results flagged for a closer look

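The change from PD to PWOFC differed from the change from CTRL to CWOFP, in edgeR's test of that difference itself, for 73 of the genes named, 33 with a difference above 0 and 40 below 0. Among all genes, 2871 of 12817 (22.4%) passed this test. Many of the genes were named for a large change from PD to PWOFC, and some for the difference itself. Their passing thus follows in part from how they were named. The values here are those differences on the log2 scale.

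A value above 0 means that the change from PD to PWOFC lay above that from CTRL to CWOFP, not that the level rose. LManV, CG3348 and CG31077 were lower in PWOFC than in PD. The genes above 0 were of the following kinds. Early embryonic genes were BobA (9.485), Ocho (8.575), Brd (9.446) and E(spl)m4-BFM (7.304). Yolk, eggshell and female fat body genes were Yp1 (2.327), Yp2 (3.429), Yp3 (3.690), fit (6.484), Vm32E (4.826), Cp16 (10.548), Cp18 (10.410), Cp7Fa (8.343), CG4066 (9.710) and CG13084 (9.453). Ovary germline and replication genes were nanos (2.489), bcd (1.830) and RnrL (1.630). Gut proteases and a mannosidase were Jon25Bi (7.885), Jon25Bii (8.493), Jon99Ciii (4.257), CG18179 (8.751) and LManV (2.842). Chaperone and redox genes were Hsp26 (1.855), Hsp27 (1.812), Hsc70-3 (1.685), Sod3 (1.778), Duox (1.942) and Nox (2.223). An accessory gland gene, a mucin-related gene and uncharacterized genes were Acp76A (3.547), Mur11Da (8.570), CG12716 (9.090), CG3348 (1.040) and CG31077 (2.601).

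The genes below 0 were grouped likewise. Testis and dosage compensation genes were Mst87F (-2.246), dj (-1.506) and lncRNA:roX2 (-1.206). Genes of respiratory complexes III and IV and their paralogs were COX6AL (-1.435), COX6CL (-1.830), COX7AL (-1.715) and ox (-1.145). Digestive enzyme genes were tobi (-2.366), Mal-A1 (-2.189), Mal-A8 (-2.377), Mal-B1 (-3.851), CG6277 (-2.006) and Lip3 (-3.098). Detoxification, metal-binding and redox genes were Cyp6a2 (-2.301), GstD5 (-4.089), Ugt37A2 (-3.978), Ugt37D1 (-1.779), Ugt35C1 (-2.549), MtnA (-2.263), MtnE (-2.511), TrxT (-1.462) and Prx1 (-1.461). Stress and immune genes were l(2)efl (-2.644), Hsp67Bc (-2.540), Hsp70Bb (-2.704), Hsp70Bbb (-3.674), Hsp70Bc (-3.037), CecA1 (-2.309), Def (-2.867) and BomS6 (-2.095). Metabolic, cuticle, odorant-binding and other genes were Ldh (-1.655), Thor (-1.911), e (-3.156), Obp19d (-1.704), Obp49a (-1.485), dyw (-7.131), Vajk2 (-6.871), CG9701 (-1.613), CG34040 (-4.122) and lncRNA:CR32553 (-1.864).

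Of these 73 genes, 54 passed the test of the difference without each of the 12 libraries in turn, and 19 lost it without at least one, most often PD1 (17), CTRL3 (16) and PWOFC1 (15). Over the 8 other settings tried, 28 of the 73 passed in all, and 27 passed both in all of these and without each library. The 19 that lost it without a library were BobA, Brd, Ocho, E(spl)m4-BFM, Cp18, CG3348, LManV, Lip3, lncRNA:CR32553, Obp49a, lncRNA:roX2, BomS6, e, dyw, MtnE, ox, Prx1, TrxT and Hsp70Bb. Dyw was at 88.7 CPM in CWOFP3 and at 1.23 CPM or less in the other 11 libraries, and its difference was lost without CWOFP3. Vajk2 was at 23.8 and 43.8 CPM in CWOFP1 and CWOFP3.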

How the results depend on the processing

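Among genes named with their change from PD to PWOFC, no alternative reversed the direction of one that passed in the main fit or in that alternative. Over 120 named genes and all alternatives, 1587 values kept their side of the threshold, 84 (36 genes) no longer passed and 9 (5 genes) newly passed. A change of sign in a gene that passed in neither fit was not counted as a reversal, and any such value is among the 1587. One fit of all 18 libraries, in which 18 of them lost their call, took the most. The counts of DETs moved more. DESeq2 gave 673 between PD and CTRL, 502 between PWOFC and CTRL, 501 between PWOFC and CWOFP and 521 between CWOFP and CTRL, with 584 genes returned, 25 overshot, 12 stayed and 52 not resolved. Limma voom with quality weights gave 1491, 330, 8 and 575 for these comparisons, 4375 for the interaction (2539 lower), and 1245 returned, 37 overshot, 6 stayed, 202 not resolved and 1 moved further. Relative log expression scaling left 4 overshot. With upper quartile scaling 575 genes rose from PD to PWOFC (13.1% of DETs against 29.2%), PD and CTRL differed in 485 and PWOFC and CTRL in 70, the interaction gave 459 higher and 2627 lower, and 437 returned with 0 stayed. Without a filter on low counts there were 468 between PD and CTRL, 401 returned, 14 overshot, 4 stayed and 1 moved further. One fit of all 18 libraries gave 2388 from PD to PWOFC (1213 lower, 49.2% higher), 25 between PD and CTRL, 39 between PWOFC and CTRL, 38 between PWOFC and CWOFP, 297 for the interaction (192 higher, 105 lower), and 23 returned, 0 overshot, 0 stayed and 2 not resolved. Ribosomal protein scaling, chosen after seeing the data, gave 2012 higher from PD to PWOFC (49.9% of DETs), 89 between PD and CTRL, 35 between PWOFC and CWOFP, 493 for the interaction (368 higher, 125 lower), and 70 returned, 3 overshot, 1 stayed and 15 not resolved. With no fold threshold 7966 genes differed from PD to PWOFC, and 16 overshot, 1 stayed and 1 moved further. The causes of these shifts were not tested, apart from the missing threshold or filter itself.

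Replicate numbers did not pair the PD and PWOFC libraries (correlations of same-numbered deviations -0.385, -0.139 and -0.249). The replicate block left the PWOFC to PD counts at 1209 higher and 2915 lower, and gave 532 between PD and CTRL, 528 between PWOFC and CTRL, 43 between PWOFC and CWOFP, and 430 returned, 37 overshot, 7 stayed and 58 not resolved. In edgeR's test with this block CG13084, Cp18, Cp7Fa, Vm32E, CG15263, LManV and ninaE lost their PWOFC to PD calls (adjusted p between 0.0505 and 0.117). Hsp70Bbb newly passed.

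Leaving out each library in turn gave 3435 to 4535 DETs from PD to PWOFC (894 to 1495 higher, 2430 to 3127 lower), 39 to 1648 between PD and CTRL, 1 to 493 between PWOFC and CTRL, 2 to 23 between PWOFC and CWOFP and 54 to 257 between CWOFP and CTRL. The interaction ranged from 1170 to 3862 (458 to 1823 higher, 666 to 2039 lower). Returned genes ranged from 28 to 1355, overshot from 0 to 11, stayed from 0 to 4, not resolved from 11 to 282 and moved further from 0 to 2. With 3 libraries a group and 17920498 to 29165130 counts a library, genes near 0 counts have wide errors, and the small count between PWOFC and CWOFP does not show that these groups were alike.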
